A study of Rattus norvegicus with 6 samples.

Results

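The 9 genes described here encode enzymes of glycolysis and of fructose breakdown in liver: Pklr, Pfkl, Pfkfb1, Pfkfb3, Aldoa, Tpi1, Pgk1, Ldha and Khk. They were chosen by function, with earlier results of these data known. Each was found through the RefSeq transcript identifier of its probe. All 9 were measured, each by 1 probe, among 9627 genes that could be named on the array. The liver RNA came from male Sprague Dawley rats kept on a diet with 60% fat and dosed into the stomach for 9 weeks. Controls (n = 3) received distilled water, and the tea group (n = 3) received dark tea that the fungus Eurotium cristatum, number 8730, had fermented. Both groups ate the high-fat diet, and no normal-diet liver was analysed here. The 6 samples were each read on 1 single-colour array. The labels do not say whether each array was a separate animal, so the spread behind every p-value may in part be technical.

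Glycolysis splits glucose into pyruvate, and in liver it runs against gluconeogenesis, which uses most of the same enzymes in reverse. Liver controls the direction at phosphofructokinase and its activator fructose 2,6-bisphosphate and at the liver form of pyruvate kinase. Fructose enters below the phosphofructokinase step through ketohexokinase, so it escapes that control, and it is known as a strong driver of fat synthesis in liver. Pklr is a classic target of the carbohydrate response factor ChREBP (gene Mlxipl), whereas Pgk1, Ldha, Aldoa, Tpi1 and Pfkfb3 are known targets of the hypoxia factor HIF-1.

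Promoter windows show how differently these genes are built. RefSeq windows of 300 bases on GRCr8, from 250 bases before to 50 after a start site, were held for 8 of the 9 genes. None was held for Pgk1, so its promoter was not searched. Those of Pklr, Pfkl, Tpi1 and Khk are printed as examples, and the array results below do not rest on them. In Pklr the capitals mark a match to the carbohydrate response element, taken as CACGNG and CNCGTG with 5 free bases between them, followed by a match to the pattern of the liver transcription factor HNF1, GTTA and TAAC with 5 free bases between them. In the other windows the capitals mark the GC box GGGCGG or the hypoxia response core, ACGTG or GCGTG.
Pklr, chr2:176841014-176841313, plus strand: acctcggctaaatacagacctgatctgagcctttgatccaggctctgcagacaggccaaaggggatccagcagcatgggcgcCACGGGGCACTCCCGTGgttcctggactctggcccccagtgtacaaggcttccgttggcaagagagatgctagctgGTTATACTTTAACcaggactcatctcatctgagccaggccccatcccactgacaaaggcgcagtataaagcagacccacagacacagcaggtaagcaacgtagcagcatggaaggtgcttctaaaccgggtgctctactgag
Pfkl, chr20:10663715-10664014, plus strand: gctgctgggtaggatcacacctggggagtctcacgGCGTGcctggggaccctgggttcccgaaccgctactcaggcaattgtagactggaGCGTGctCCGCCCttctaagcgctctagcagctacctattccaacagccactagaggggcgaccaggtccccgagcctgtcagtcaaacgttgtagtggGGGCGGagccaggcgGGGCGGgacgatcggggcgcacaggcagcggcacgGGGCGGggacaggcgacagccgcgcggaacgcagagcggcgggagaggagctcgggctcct
Tpi1, chr4:159305039-159305338, minus strand: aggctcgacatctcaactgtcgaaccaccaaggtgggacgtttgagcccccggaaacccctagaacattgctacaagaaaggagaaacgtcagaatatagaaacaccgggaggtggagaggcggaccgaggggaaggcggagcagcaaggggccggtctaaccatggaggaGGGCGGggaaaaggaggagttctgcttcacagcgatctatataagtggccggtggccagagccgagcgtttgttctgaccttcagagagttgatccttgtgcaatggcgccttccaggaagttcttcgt
Khk, chr6:31175432-31175731, minus strand: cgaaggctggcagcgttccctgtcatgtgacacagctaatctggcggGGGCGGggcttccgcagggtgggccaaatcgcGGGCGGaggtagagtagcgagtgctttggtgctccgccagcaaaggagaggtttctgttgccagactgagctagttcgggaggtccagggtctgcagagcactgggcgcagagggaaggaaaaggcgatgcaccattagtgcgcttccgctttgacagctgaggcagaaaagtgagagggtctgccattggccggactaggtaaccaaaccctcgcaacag

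Both strands were searched for each motif. The carbohydrate response element began 168 bases before the Pklr start, and it was found in 11 of 33469 windows of all genes, or 0.0329%. The HNF1 pattern began 92 bases before the Pklr start and was present in 0.248% of windows. The Pklr window held no GC box, whereas Pfkl had 4, Khk 2 and Tpi1 1, and 33.1% of all windows held at least 1. The hypoxia core matched 2 times in Pfkl, 2 times in Pfkfb3, 6 times in Ldha and 1 time in 1 of the 3 windows of Aldoa, where 41.6% of windows held it. In Ldha and Pfkfb3 it overlapped an E-box, CACGTG, which reads the same on both strands, lies in 6.42% of windows and counts as 2 of these matches. These matches describe letters in a window and are not measured binding sites.

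None of the 9 enzymes differed between tea and control after correction over 26419 probes (limma with Benjamini-Hochberg adjustment, adjusted p of 0.949 or above). The same fit called 1 probe of all, or 0.00379%. At an unadjusted p under 0.05 it took 1 of the 9 enzymes, Pgk1, where 4.23% of all probes were taken. Mean levels were lower with tea for 6 enzymes and higher for 3, against 50.3% lower among all probes. The median log2 fold change of the 9 was -0.25, beside -0.0022 for all probes. The tea and control arrays did not overlap for 2 enzymes, Pgk1 and Tpi1, both lower with tea, where 10.4% of all probes did not overlap in either direction and 5.54% did not with tea lower. With 9 genes these counts are too few to set the enzymes apart from other probes, and no test of the list was made.

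Over the whole profile, control replicate 1 was unlike the remaining 5 arrays, and its values bear on most of the enzymes. Its Pearson correlation over probes with the others was 0.884 to 0.899, against 0.945 to 0.972 among those 5. It lay beyond all 5 other arrays for 7 of the 9 enzymes, 4 above and 3 below, as it did for 55.4% of all probes. It lay beyond them by more than 1 on the log2 scale for Pfkl and Khk, 2 of 9, against 9.70% of all probes. Each enzyme's difference is therefore given with and without this array, and that of a neighbouring gene where it moved by more than 1.5 times. Without it, 6 probes passed the correction, or 0.0227% of all, and none was one of the 9 enzymes; at an unadjusted p under 0.05 there were 0 of 9, against 5.63% of probes. Mean levels were then lower with tea for 7 enzymes and higher for 2, beside 49.3% lower among all probes. The groups then did not overlap for 3 enzymes, Pgk1, Tpi1 and Khk, where 21.1% of probes did not.

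**Figure D1:**
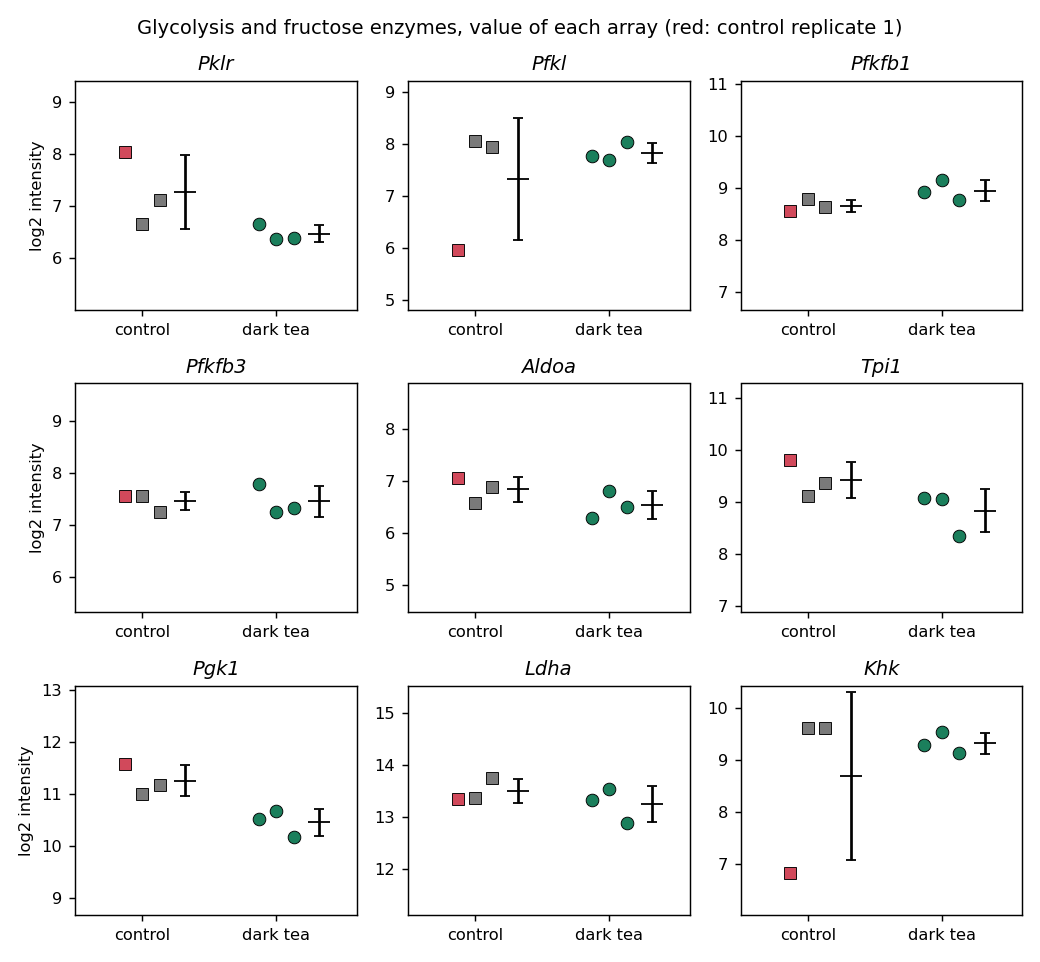
Log2 intensity of each enzyme in each array, with control arrays as squares, tea arrays as circles, control replicate 1 in red, and the group mean ± SD (n = 3) as a bar beside the points; every panel spans the same number of log2 units. Control replicate 1 is far below the rest for Pfkl (5.97) and Khk (6.82) and above them for Pklr (8.04), while the tea arrays lie below every control for Pgk1 and Tpi1.

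Khk encodes ketohexokinase, which phosphorylates fructose to fructose 1-phosphate. Its log2 intensity was 9.29, 9.53 and 9.14 in tea replicates 1, 2 and 3, and 6.82, 9.62 and 9.61 in control replicates 1, 2 and 3. Control replicate 1 was thus 6.92-fold below the mean of the other controls on the log scale, and those controls lay above all 3 tea arrays. Over all 6 arrays the tea mean was 9.32 ± 0.20 and the control mean 8.68 ± 1.61 (SD, n = 3 each), a log2 fold change of 0.64 ± 0.64 (SE, 95% confidence interval -0.79 to 2.06, limma adjusted p = 0.949). Without control replicate 1 the difference turned to -0.29 ± 0.31 (adjusted p = 0.951), a tea level 1.23-fold lower. The direction for Khk was therefore set by that array.

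Pfkl, the liver subunit of phosphofructokinase, which commits fructose 6-phosphate to glycolysis, had the same shape. Its tea values were 7.76, 7.68 and 8.04, and its control values 5.97, 8.05 and 7.94. Control replicate 1 was 4.09-fold below the mean of the other controls, and the remaining 5 arrays fell within a narrow band. The log2 fold change was 0.51 ± 0.51 (SE) with all arrays and -0.17 ± 0.31 without control replicate 1, with limma adjusted p = 0.949 and 0.974. A change of direction without that array was seen for 3 of the 9 enzymes, Khk, Pfkl and Pfkfb3, and for 24.1% of all probes.

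Pfkfb1 and Pfkfb3 encode forms of the enzyme that both makes and degrades fructose 2,6-bisphosphate; the first is the main liver form and the second, which favours synthesis, is inducible and widely expressed. Pfkfb1 stood at 8.92, 9.16 and 8.76 with tea and at 8.55, 8.78 and 8.63 in the controls. Its highest control lay just above its lowest tea array, so the groups overlapped, and its mean was 0.29 ± 0.29 higher with tea (SE, adjusted p = 0.949) and 0.24 ± 0.31 higher without control replicate 1. Pfkfb3 stood at 7.80, 7.24 and 7.32 with tea and at 7.55, 7.56 and 7.26 in the controls. Its groups were interleaved, with a difference of -0.0037 ± 0.30 and a 95% interval of -0.68 to 0.67, and 0.045 ± 0.32 without control replicate 1.

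Pgk1, phosphoglycerate kinase, which makes the first ATP gained in glycolysis, had the smallest p of the 9 enzymes. Its log2 intensity was 10.52, 10.66 and 10.16 with tea and 11.58, 11.00 and 11.18 in the controls. Every tea array lay below every control. The group means were 10.45 ± 0.26 and 11.25 ± 0.30 (SD, n = 3 each), 1.75-fold lower with tea, with a log2 fold change of -0.80 ± 0.31 (SE, 95% confidence interval -1.49 to -0.12). The unadjusted limma p was 0.0262 and the adjusted p 0.949. The exact two-sided permutation test gave p = 0.1, the smallest that 3 arrays against 3 allow. Without control replicate 1 the difference was -0.64 ± 0.32 with an unadjusted limma p of 0.0614, and over the 6 omissions of an array it ran from -0.93 to -0.64.

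Tpi1, triosephosphate isomerase, which interconverts the products of the aldolase step, also had non-overlapping groups. It stood at 9.08, 9.06 and 8.35 with tea and at 9.80, 9.12 and 9.36 in the controls. Tea replicates 1 and 2 lay only just below control replicate 2, and tea replicate 3 was the lowest of all. The log2 fold change was -0.60 ± 0.34 (SE, limma adjusted p = 0.949, exact permutation p = 0.1), and -0.41 ± 0.34 without control replicate 1.

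Pklr, whose liver form of pyruvate kinase catalyses the last step of glycolysis, had log2 intensities of 6.66, 6.38 and 6.39 with tea and of 8.04, 6.65 and 7.13 in the controls. The controls were higher on average, but tea replicate 1 and control replicate 2 were level. The difference was -0.80 ± 0.38 (SE, 95% confidence interval -1.64 to 0.044), a 1.74-fold lower mean with tea. The unadjusted limma p was 0.0609 and the adjusted p 0.949. Control replicate 1, at 2.22-fold above the other controls, carried much of it: the difference without this array was -0.41 ± 0.32, and without control replicate 2 the unadjusted limma p was 0.0192. All 6 values lay above the random control probe, which read 5.05 to 5.40, and the tea arrays lay near 6.47, the mean level of the median probe.

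Aldoa, the aldolase form of muscle and most tissues, stood at 6.29, 6.81 and 6.49 with tea and at 7.06, 6.57 and 6.88 in the controls, with overlapping groups. The difference was -0.31 ± 0.31 (SE, adjusted p = 0.949), and -0.20 ± 0.32 without control replicate 1. Ldha, the lactate dehydrogenase subunit that predominates in liver and muscle, stood at 13.33, 13.55 and 12.89 with tea and at 13.36, 13.38 and 13.77 in the controls. Its difference was -0.25 ± 0.31, with a 95% interval of -0.94 to 0.45, and -0.32 ± 0.33 without control replicate 1, and the groups overlapped. These intervals leave room for levels close to 2-fold lower with tea in either gene, so a p above the threshold does not show that their levels were alike. Genomes of rodents carry processed copies of Pgk1, Tpi1, Aldoa and Ldha, and the probes may take in signal from such copies.

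**Figure D2:**
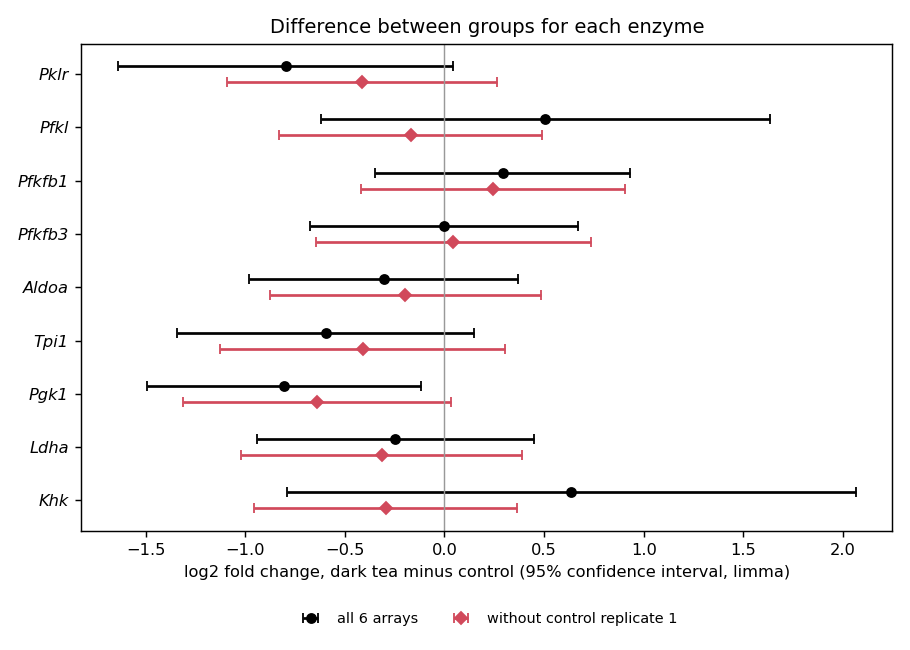
Log2 fold change of each enzyme, tea minus control, with limma's 95% confidence interval, from all 6 arrays (black circles) and without control replicate 1 (red diamonds). All intervals but that of Pgk1 with 6 arrays include 0, and Khk and Pfkl move from above 0 to below 0 when the array is left out.

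Similar patterns across arrays were looked for among the 9626 other named genes, as a description over 6 arrays of which control replicate 1 supplies most of the range. Closest to Pklr were Or14j5e, an olfactory receptor gene, with Pearson r = 0.9996, Aco1, the cytosolic aconitase that also senses iron, with r = 0.992, and Ahcy, which hydrolyses S-adenosylhomocysteine, with r = 0.990. Or14j5e read 5.11 and 5.15 in tea replicates 2 and 3, at the level of the random control probe. Without control replicate 1 the r of Or14j5e, Aco1 and Ahcy were 0.998, 0.959 and 0.957 over 5 arrays. Closest to Khk were Ube2e3, a ubiquitin-conjugating enzyme gene, Tpi1l1 and Atp6v0e1, a subunit gene of the vacuolar proton pump, with r of 0.998, 0.997 and 0.997, and of 0.939, 0.937 and 0.889 without that array. Tpi1l1, a Tpi1-like gene by its symbol, read 7.52 in control replicate 1 and 8.58 and 8.61 in the other controls. Tpi1 itself was highest in control replicate 1, so these related probes went opposite ways in the same array.

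The steps around the 9 enzymes were read from 8 lists of carbohydrate metabolism, with 78 genes measured. None of the 78 passed the correction with all arrays (limma, adjusted p of 0.949 or above), and 12 had an unadjusted p under 0.05, 3 higher and 9 lower with tea, where 4.23% of all probes did. The tea and control arrays did not overlap for 19 of the 78, 8 higher and 11 lower, where 10.4% of all probes did not. The lists were chosen with earlier results of these data known, and 56 of the 78 lay above the median probe level. These counts therefore cannot be read as an excess over all probes. The genes named below include those with the smallest p of each list, a rule that favours groups that do not overlap.

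Upstream, the list of glucose entry and phosphorylation had 4 of 9 genes higher and 5 lower, with a median of -0.18 that turned to 0.051 without control replicate 1. Gckr, a regulatory protein of glucose phosphorylation, stood at 8.12, 8.95 and 8.80 with tea and at 9.82, 9.92 and 10.47 in the controls, without overlap, a difference of -1.45 ± 0.34 (SE, limma adjusted p = 0.949). Slc2a1, a glucose transporter gene with little expression in hepatocytes and chosen after its values were seen, differed by -1.19 ± 0.46 with non-overlapping groups, and by -0.64 without control replicate 1. Its tea values, 4.83, 4.93 and 5.28, lay within or below the range of the random control probe, which leaves its size uncertain.

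Among the other glycolytic enzymes 9 of 16 genes were higher and 7 lower, with a median of 0.091, or 0.019 without control replicate 1. Eno3, the muscle form, stood at 6.98, 6.89 and 7.44 with tea and at 6.22, 6.23 and 6.13 in the controls, a difference of 0.91 ± 0.30 (SE, limma adjusted p = 0.949) that was 0.93 without control replicate 1. Eno2, the neuronal form, stood at 6.70, 6.20 and 6.58 with tea and at 4.96, 5.79 and 5.38 in the controls, so that some controls lay at the level of the random control probe. Both had groups that did not overlap, whereas Eno1, the common form, chosen after its values were seen, differed by -0.18 ± 0.30 and by -0.039 without control replicate 1. Gapdh, glyceraldehyde 3-phosphate dehydrogenase, differed by -0.46 ± 0.33. Pkm, the pyruvate kinase gene of most other tissues, ran from 4.85 to 6.06 over the 6 arrays and differed by 0.53 ± 0.37, or 0.32 without control replicate 1. In control replicates 1 and 3 Pkm read 4.85 and 4.90, below the random control probe, which leaves the size of its difference uncertain.

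**Figure D3:**
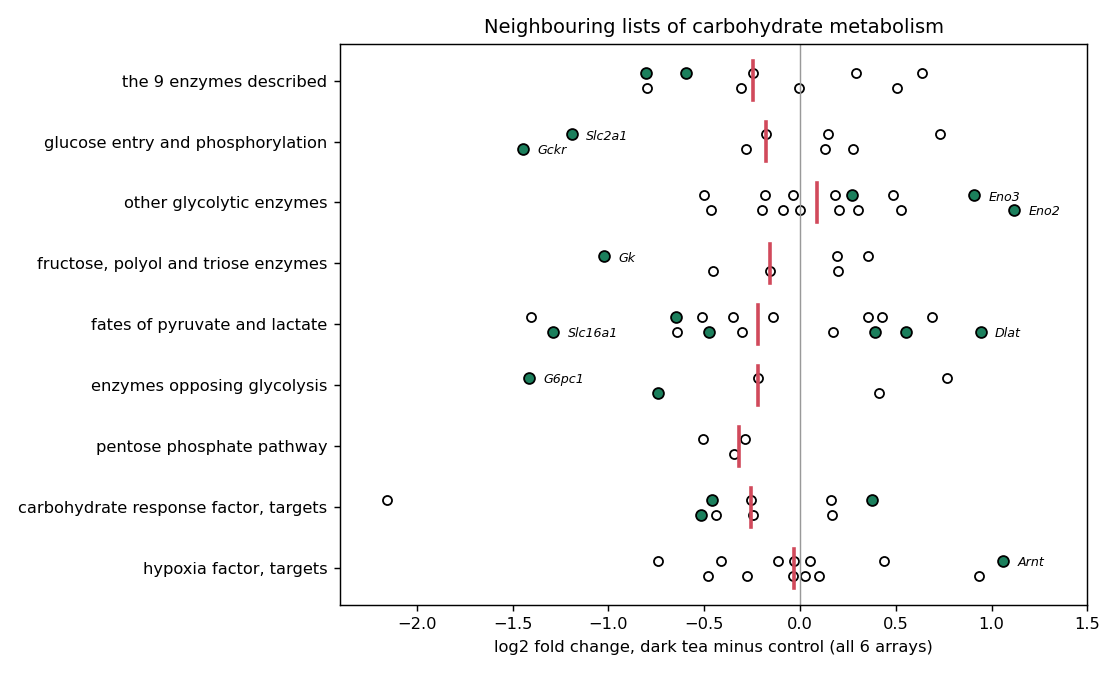
Log2 fold change, tea minus control with all 6 arrays, for the 9 enzymes and genes of 8 neighbouring lists; filled circles are genes whose tea and control arrays do not overlap, with those beyond 0.9 named, and red bars are medians over all measured genes of a list, of which a few are not drawn. List medians lie between -0.32 and 0.091, and the genes drawn reach from -2.16 (Scd) to 1.12 (Eno2).

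In the list of fructose, polyol and triose enzymes 3 of 7 genes were higher and 4 lower, with a median of -0.16, or -0.10 without control replicate 1. Gk, the glycerol kinase that feeds glycerol into the triose pool, stood at 10.22, 10.22 and 9.31 with tea and at 10.71, 10.95 and 11.15 in the controls. The groups did not overlap, with a difference of -1.02 ± 0.34 (SE, limma adjusted p = 0.949). Gpd2, the mitochondrial glycerol 3-phosphate dehydrogenase, differed by -0.46 ± 0.38 and by -0.70 without that array.

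The list of the fates of pyruvate and lactate had 7 of 16 genes higher and 9 lower, with a median of -0.22, or -0.34 without control replicate 1. Slc16a1 encodes the monocarboxylate transporter MCT1, which carries lactate across the cell membrane. It stood at 9.91, 10.16 and 9.85 with tea and at 10.97, 11.34 and 11.48 in the controls. All tea arrays lay below all controls, by 2.44-fold on average, and the log2 difference of -1.29 ± 0.30 (SE, limma adjusted p = 0.949) lay between -1.43 and -1.18 over the 6 omissions. Dlat, the acetyltransferase subunit of pyruvate dehydrogenase, stood at 7.45, 7.16 and 7.18 with tea and at 5.87, 6.60 and 6.50 in the controls, a difference of 0.94 ± 0.32, or 0.72 without control replicate 1.

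Among enzymes opposing glycolysis 2 of 5 genes were higher and 3 lower, with a median of -0.22. G6pc1, which releases free glucose, and its transporter gene Slc37a4 differed by -1.42 ± 0.42 and -0.74 ± 0.31, both without overlap. In the pentose phosphate pathway 1 of 4 genes was higher and 3 were lower, with a median of -0.32, and Taldo1, transaldolase, differed by -0.51 ± 0.34 and by -0.23 without control replicate 1.

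Pklr's regulator was measured too. Mlxipl stood at 9.82, 9.24 and 9.57 with tea and at 9.69, 10.01 and 10.25 in the controls, with overlapping groups and a difference of -0.44 ± 0.31 (SE, limma adjusted p = 0.949). Txnip, a strongly glucose-responsive target of ChREBP, stood at 7.78, 7.88 and 7.75 with tea and at 8.004, 8.18 and 8.61 in the controls, below every control with a difference of -0.46 ± 0.30. Of the 9 measured genes of that factor and its targets outside glycolysis 3 were higher and 6 lower, with a median of -0.26. Without control replicate 1 the median was -0.52, with 4 higher and 5 lower. The 3 higher genes with all arrays were Fasn, Mlx and Elovl6, by 0.38, 0.17 and 0.16. The groups of Fasn did not overlap, but all its control values lay within the range of the random control probe. Acaca, acetyl-CoA carboxylase, differed by -0.52 ± 0.33, and Scd, stearoyl-CoA desaturase, by -2.16 ± 0.83 and by -0.99 without control replicate 1. The groups of Scd overlapped.

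The hypoxia factor and its targets outside glycolysis had 6 of 13 genes higher and 7 lower, with a median of -0.033 that was 0.19 without control replicate 1. Hif1a stood at 8.54, 8.14 and 7.47 with tea and at 8.04, 8.20 and 8.25 in the controls, a difference of -0.11 ± 0.34, or -0.18 without control replicate 1. Arnt, its partner, read 7.12 in control replicate 1 and 9.59 to 9.99 in the other 5 arrays, and its difference went from 1.06 to 0.22 without that array. Hmox1, haem oxygenase, differed by -0.74 ± 0.41 and by -0.34 without that array. Control replicate 1 lay beyond the other 5 arrays by more than 1 for 5 of the 13 genes, against 9.70% of all probes. Adm, Ddit4 and Hmox1 were above and Arnt and Bnip3 below. Over all the neighbouring lists together it did so for 10 of 78 genes, and this list held the most of them.

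**Figure D4:**
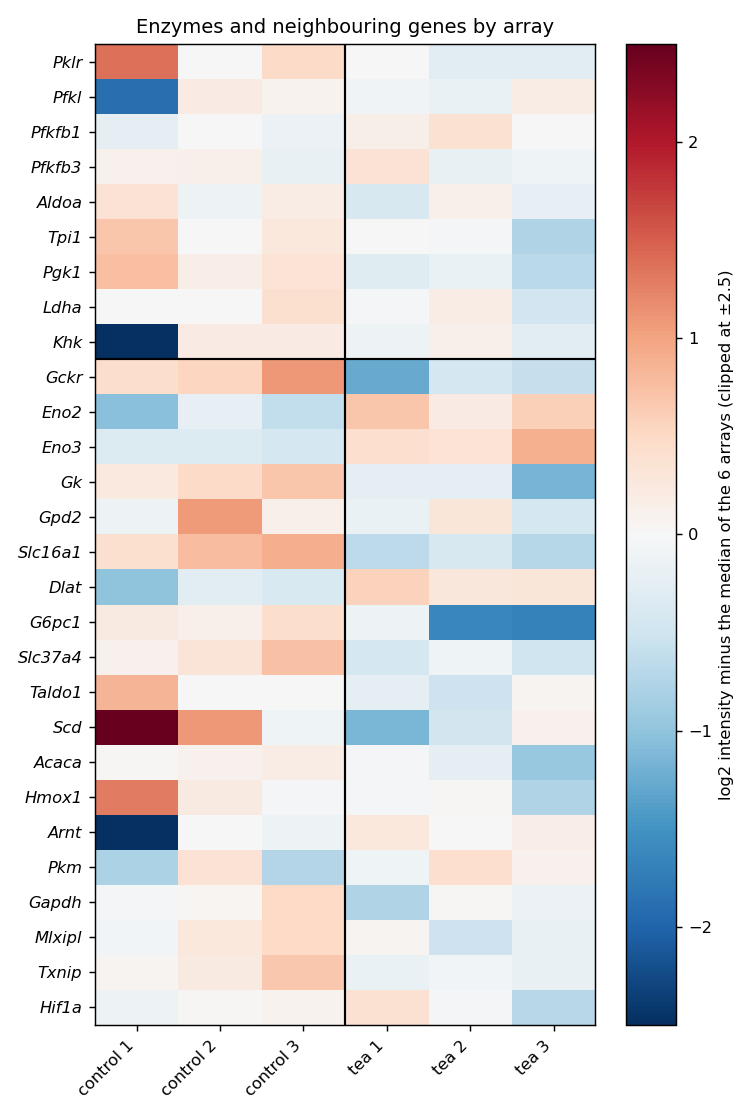
Log2 intensity minus the gene's median over the 6 arrays, for the 9 enzymes (above the line) and the neighbouring genes named by rule, with arrays as columns and colours clipped at 2.5. The control replicate 1 column holds the strongest colours for Khk, Pfkl and Arnt (low) and Scd (high), and Gckr, Gk, Slc16a1 and Slc37a4 are lower in every tea array than in every control array.

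All 12 hepatocyte markers lay above the median probe level, and their summed level was 18.31 to 18.39 on the log2 scale with tea and 18.29 to 18.51 in the controls. In control replicate 1, Apoc3 and Tat differed from the mean of the other controls by -1.63 and -1.51, Alb by -0.25 and Tf by -0.0025. Ahsg and Fgb differed by -0.30 and -0.018. The rest of the 12, namely Ttr, Cps1, Apoa1, Hp, Serpina1 and Cyp2e1, were higher in that array, by 0.068 to 0.47. Markers of skeletal muscle, a tissue rich in glycolytic enzymes, summed to 8.05 to 8.39 with tea and 8.09 to 8.48 in the controls over 5 of 5 genes. Only 1 of these 5 lay above the median probe level. The summed erythroid level was 10.87 to 12.11 with tea and 11.56 to 11.90 in the controls over 4 of 6 genes. The 3 measured of 7 lymphocyte markers were all higher with tea, with a summed level of 9.41 to 10.47 against 8.70 to 9.21. Gzmb made up most of that gap, with 8.95 to 10.21 against 8.26 to 8.43, while Cd3d differed by 0.57, or 0.094 without control replicate 1, and Nkg7 by 0.13. Median log2 fold changes were -0.19 for 5 Kupffer cell and macrophage markers, 0.048 for 2 endothelial, 0.049 for 4 stellate, -0.15 for 3 cholangiocyte and -0.078 for 3 adipocyte markers. Without control replicate 1 these medians were -0.24, -0.26, 0.14, -0.027 and 0.049, in the same order. The part of other cell types in the values of Pgk1, Tpi1 and the other enzymes was not tested, and in bulk tissue fewer cells of a type and less RNA per cell cannot be told apart.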

How the data were processed

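Liver RNA was read with the Cy3 dye on NimbleGen arrays, per the labels' protocols. The authors deposited 1 linear intensity per probe and array. They used RMA, per the submitters' processing notes, with version and settings not given in the sources used here. This step makes arrays alike in distribution, so differences in total signal are no longer visible. Median intensity was 87.1 to 95.9 per array. Log2 was taken with no further scaling. Of 26420 rows, all but 1 random control row entered the tests (26419 probes), with no filter. Identifiers matched to a RefSeq table of GRCr8 named 9747 probes and 9627 genes, 0 with several symbols and 16672 with none; the probe with the highest mean stood for a gene.

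Groups came from titles. The groups were compared with limma 3.58.1 under R 4.3.3 (lmFit and eBayes, two-sided), adjusted by Benjamini-Hochberg over all probes at a threshold of 0.05. The fit was also checked on simulated data with equal spread in every array, which therefore held no array set apart like control replicate 1. Named genes were the 9 enzymes, the 2 with the smallest p of each list, 8 fixed genes, and the 3 most like Pklr and Khk each. Some genes that this rule took are not reported here. The enzymes and lists were chosen with earlier results of these data known. The closing section gives the 14 alternatives. The number of arrays limits precision.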

Additional observations from a re-analysis of the deposited data

How the results depend on the processing

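None of the 9 enzymes passed the correction over all probes under any of the 14 alternatives. At an unadjusted p under 0.05 the count went from 1 to 0 with array weights and to 0 with the replicate number as a block, and to between 0 and 2 when 1 array was omitted. Over all probes the count past the correction went from 1 to 27 with array weights and to 0 with the replicate block, and to between 0 and 6 when 1 array was omitted. With array weights Pfkl turned to -0.12, Aldoa to 0.0055 and Atp6v0e1 to -0.0023. With an array left out the difference ran from -0.17 to 0.87 for Pfkl, -0.18 to 0.10 for Pfkfb3, -0.29 to 1.10 for Khk, -0.36 to 0.17 for Hif1a, -0.11 to 0.48 for Ube2e3, -0.090 to 0.45 for Tpi1l1 and -0.24 to 0.95 for Atp6v0e1. The other 29 of 37 named genes kept their direction throughout. Correlations of same-numbered deviations from the group means were -0.22, 0.013 and -0.25, and 0 of 6 arrays correlated best with their own number. Such deviations depend on each other within a small group, and control replicate 1 stood apart. This check therefore cannot show whether shared replicate numbers paired the arrays. The causes of the shifts between settings were not tested, beyond the omitted array itself.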

Other observations

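Genes of pyruvate oxidation, taken up here after their values were seen, were split among the arrays. Pdha1, the catalytic subunit gene of pyruvate dehydrogenase, had log2 intensities of 13.21, 13.16 and 12.90 with tea and of 12.35, 12.70 and 12.56 in the controls, so that the groups did not overlap, with a log2 fold change of 0.55 ± 0.29 (SE, limma adjusted p = 0.949). Pdhb, its partner subunit, read 7.83 in control replicate 1 and 9.64 to 10.42 in the other 5 arrays, and its difference of 0.69 was -0.066 without that array. Mpc2, a subunit of the mitochondrial pyruvate carrier, read 6.86 in control replicate 1 and 8.74 to 10.44 elsewhere, and its difference went from 0.43 to -0.65. Its partner Mpc1 read 8.81 in that array, level with control replicate 2. Pdk4, the kinase that shuts off pyruvate dehydrogenase in fasting, stood at 10.40, 7.95 and 9.73 with tea and at 10.08, 11.02 and 11.19 in the controls, a difference of -1.41 ± 0.57 that was -1.75 ± 0.52 without control replicate 1 (adjusted p = 0.949 and 0.660). Over the 6 omissions of an array the difference ran from -1.92 to -0.70, and with all arrays the groups overlapped. Fbp1, the fructose bisphosphatase that opposes Pfkl, was also taken up after its values were seen. It read 9.91 in control replicate 1 and 11.99 to 12.25 in the other arrays. Pfkl and the enzyme that reverses its step were thus both low in an array that was the lowest for 7228 of 26419 probes.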
